A study of Mus musculus with 4 samples.

Results

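The regions described here are runs of neighbouring genomic loci that the deposited tables name by position alone, as a chromosome, a start, an end and a strand, with no gene symbol. Loci on the same strand were chained where the gap between them was at most 1000 bp, overlaps included. A chain was kept as an array when it held at least 3 loci, of which at least 1 was 1500 bp or longer. This rule, which uses no measured value, kept 6501 loci in 1680 arrays, of 60983 position-named rows and 115821 rows in all. The remaining position-named rows were 14540 loci in arrays of short loci only, 8746 in pairs, 13897 solitary loci of 900 bp or longer and 17299 shorter solitary loci.

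RNA was sequenced from Hepa1-6, an established mouse hepatocellular carcinoma line. Of the 4 libraries, 2 came from cells with the shRNA named NC, labelled as wild type for Setdb1, and 2 from cells with an shRNA against Setdb1, labelled as Setdb1 knockdown. The design text speaks of subclones, and the labels do not say whether libraries of a group came from separate clones or cultures, so the p-values below measure only the spread between these libraries. Both groups are the same line, and no promoter, dose or time is given for either shRNA. The comparison addresses which transcripts change when Setdb1 is depleted.

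As background, Setdb1 is a histone methyltransferase that places trimethylation on lysine 9 of histone H3. KRAB zinc finger proteins bind retroviral DNA and bring it in through the corepressor Trim28. Its best known targets are endogenous retroviruses, the remnants of past germline infections. A complete retroviral copy carries gag (structural proteins), pro (protease), pol (reverse transcriptase and integrase) and sometimes env (envelope), side by side on 1 strand and often in overlapping reading frames. Runs of adjacent open frames with a long member are therefore the form such a copy would take in a list of frames. The tables name no repeat family, and none was assigned here.

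The loci had the shape of open reading frames. All 60983 position-named rows had a length that is a multiple of 3. Of 302 that could be read in full from GENCODE M21 transcripts or RefSeq promoter windows of GRCm38, 1 held an in-frame stop codon, 2 began with ATG and 1 ended on a stop codon. Of the array loci, 38 were read in full, and 0 of these held a stop, a starting ATG or a final stop. Within arrays the loci ran from 243 to 4692 bp with a median of 1131 bp, and 65.6% of the 4821 neighbouring pairs overlapped. Arrays spanned 2104 to 15724 bp with a median of 5239 bp, and 999 of the 1680 held exactly 3 loci.

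Part of 167 array loci could be read over 60 or more bases. The tyrosine-any-aspartate-aspartate box of reverse transcriptase, searched by its codons in the frame and on the strand of each locus only, occurred in 7 of them. Over all 697 position-named loci with 60 or more readable bases it occurred in 46, or 6.6%. Stretches of 60 bases from 5 of these loci follow, 5′ to 3′ on the locus strand in GRCm38 coordinates, with the 4 codons of the box in capitals. They are shown for the likeness between some of the copies.

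chr5:117299903-117299962, minus strand: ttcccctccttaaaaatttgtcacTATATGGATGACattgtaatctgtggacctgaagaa
chr10:17321033-17321092, minus strand: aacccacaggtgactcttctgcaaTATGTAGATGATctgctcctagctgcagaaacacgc
chr7:13172090-13172149, plus strand: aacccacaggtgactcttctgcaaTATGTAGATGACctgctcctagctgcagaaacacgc
chr12:69550630-69550689, plus strand: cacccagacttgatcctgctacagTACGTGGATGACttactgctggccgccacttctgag
chr5:44138142-44138201, plus strand: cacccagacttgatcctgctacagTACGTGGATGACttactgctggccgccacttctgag

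The last of these pairs, on chromosomes 12 and 5, was equal at 60 of 60 bases, and the chromosome 10 and 7 stretches at 59 of 60. The first, from a 2025-bp locus on chromosome 5, was equal to the others at 25 to 28 of 60. That first locus belongs to an array that was higher after Setdb1 shRNA, whereas the arrays of the other 4 had at most 9.78 counts over all libraries. The stretches of the other 2 loci with the box were equal to no other at more than 53.3% of bases. A match shows only that these letters are present.

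In the libraries the array loci were mostly silent. No read was assigned to 2786 of the 6501 loci in any library, and between 2399 and 2647 had a count in any 1 library. Library totals lay between 19513567 and 19615440 estimated counts, and the array loci took 0.203% to 0.234% of them. The authors' program divides reads that fit several places, so counts can be fractional. Only 9 of the 625 loci that passed the low-count filter had whole counts in all 4 libraries, at a tolerance of 0.005. Where counts were fractional, a locus shared reads with other rows, and whether those were near copies, overlapping neighbours or genes was not tested.

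Setdb1 itself had 1003 and 1160 counts in the NC libraries and 215 and 168 after Setdb1 shRNA. The groups did not overlap, and the fitted log2 fold change was -2.48 (SE 0.182, adjusted p = 1.301e-04 by edgeR's quasi-likelihood test), which leaves 18% of the NC level.

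The summed level of the array loci did not differ between groups beyond the spread between libraries. The sum was 2047 and 2340 CPM (counts scaled to the library total) in the NC libraries and 2033 and 2092 CPM after Setdb1 shRNA, a change that in bulk RNA could not tell fewer expressing cells from less RNA per cell. The groups overlapped, with means of 2193 ± 207 (SD, n = 2) and 2063 ± 41.6 CPM (SD, n = 2). An exact permutation test, two-sided, gave p = 0.667, and 2 libraries against 2 cannot go below 0.333. The log2 ratio of the means was -0.09, and its sign was not stable: it was 0.06 on the TPM scale, which adjusts for length, and 0.01 without NC replicate 2. The 4 arrays of highest count held 39.9% of the total. Without them the levels were 1104 and 1282 CPM in NC and 1364 and 1367 CPM after Setdb1 shRNA, with both knockdown libraries above both NC libraries.

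Individual loci were called in both directions, mostly upward. Of 625 array loci that passed the filter, 122 rose and 7 fell at an adjusted p below 0.05 in a fit of all 13859 rows tested, genes included. Over all rows tested 5.75% rose and 1.80% fell, and over all 1038 position-named rows tested 18.7% rose and 1.06% fell. The 122 were 19.5% of the array loci tested and the 7 were 1.12%. The median log2 fold change of the tested array loci was nevertheless -0.284, against -0.00432 for all rows. The libraries of the 2 groups did not overlap for any of the 129 called loci, a separation seen in 52.1% of all rows tested. In 36 of the 122 risers no count was found in NC, and in 73, these included, the summed NC count was under 4. Such loci passed the filter through the knockdown libraries alone, so their calls and the shares of tested loci or arrays that rose, here and in the groups below, are descriptions and not support. Without NC replicate 2 the calls were 73 higher and 1 lower. With no low-count filter edgeR called 0 of 3633 loci, although 366 higher and 263 lower had an unadjusted p below 0.05, and DESeq2 with the filter called 108 and 7.

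Because the loci of an array can lie on 1 transcript, the counts of each array were also summed and refitted with the genes. Of 669 arrays tested, 77 rose and 6 fell, while 586 missed the threshold. Their median log2 fold change was -0.398. Over all 13908 rows of that fit 5.27% rose and 1.75% fell, over its gene rows 4.66% and 1.80%, and over all 1087 position-named chains 12.5% and 1.20%. Without NC replicate 2, 42 arrays rose and 0 fell, with 49 lower at an unadjusted p below 0.05. The other 1011 arrays, too low to test, held 2355 and 3010 counts in NC and 2473 and 2381 after Setdb1 shRNA. Of the risen arrays, 34 had 2 or more tested loci, all of these loci were above 0, and in 30 arrays every one was itself called higher. These loci and the array calls rest on the same counts, so this is a description and not support. Of the 92 arrays with 2 or more tested loci, 0 held loci called in both directions. With only 7 array loci called lower in all, few could have.

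**Figure D1:**
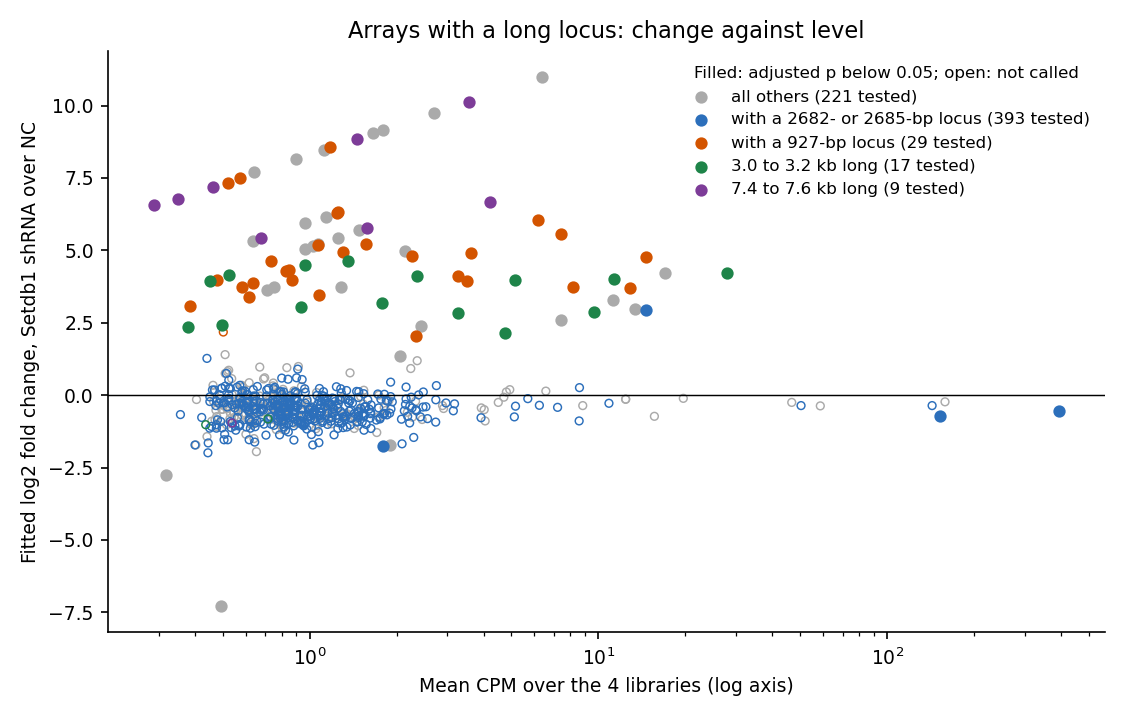
Fitted log2 fold change (Setdb1 shRNA over NC) against mean CPM on a log axis for the 669 tested arrays, 1 point each, coloured by the lengths of their loci, with filled points past an adjusted p of 0.05. The 77 risers form a cloud well above 0 with 1 blue point among them, and most of the 393 blue arrays with a 2682- or 2685-bp locus lie a little below 0.

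Arrays that rose and arrays that did not differed in the lengths of their loci. The length groups were chosen after the values had been seen, so they are a description with no test. Exact lengths recurred many times among array loci. The 12 commonest lengths were taken, whatever their values. The commonest, 921 bp, occurred in 515 arrays, of which 360 were tested, 0 rose, 3 fell and the median log2 fold change was -0.496. Lengths of 2685 bp and 2682 bp occurred in 370 and 173 arrays, with medians of -0.467 and -0.556. A length of 933 bp occurred in 304 arrays, with a median of -0.44. By contrast, a length of 927 bp occurred in 47 arrays, of which 29 were tested and 28 rose, with a median of 4.33. Of the other lengths among the 12, 954 bp had a median of 4.94 over only 2 tested arrays, and the remaining 6 had medians below 0. Sums could differ from medians. Arrays with a 354-bp locus went from 390 and 546 counts to 1019 and 1039, with 2 of 7 tested called higher, and those with a 1785-bp locus from 515 and 596 to 859 and 919, with 2 of 21 called higher.

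**Figure D2:**
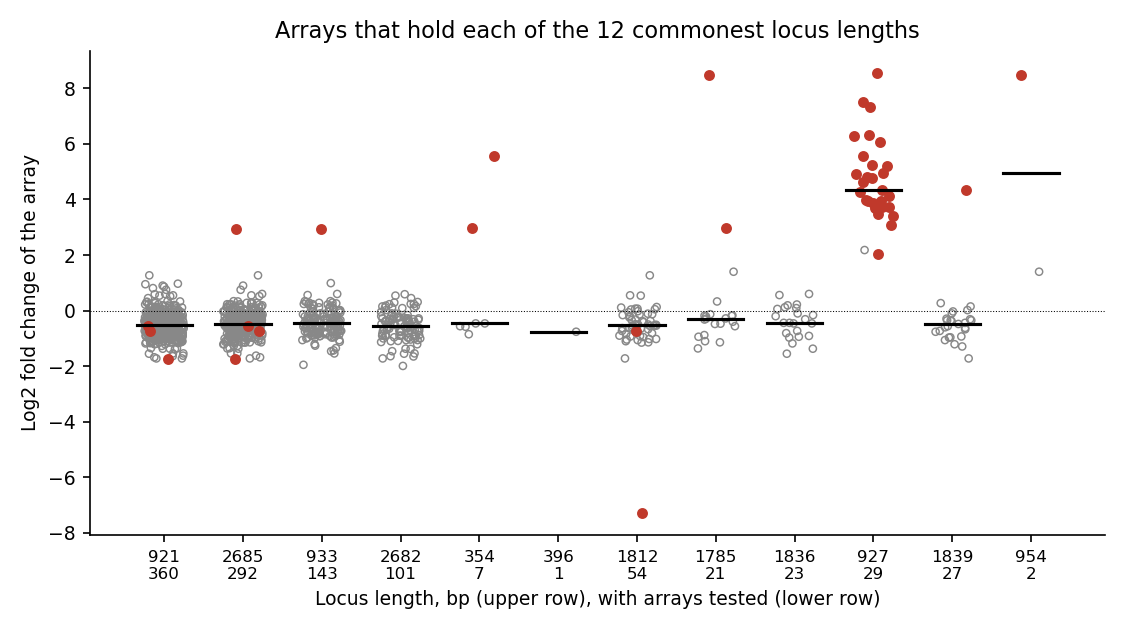
Log2 fold change of each tested array, as 1 point, for arrays that hold each of the 12 commonest locus lengths, with red points past an adjusted p of 0.05 and bars at the median. The medians of 921, 2685, 933 and 2682 bp lie between -0.556 and -0.44, and that of 927 bp at 4.33.

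The largest group, 543 arrays with a locus of 2682 or 2685 bp, typically ran as a first locus near 1800 bp, a middle locus of 921 or 933 bp and a last locus of 2682 or 2685 bp. A 921-bp locus, at any position, was held by 370 of them and a 933-bp locus by 154. Their counts summed to 27178 and 30882 in NC and 19327 and 21583 after Setdb1 shRNA. Both NC libraries were above both knockdown libraries, at 0.703 times the NC mean. Single arrays rarely passed the test: of 393 tested, 335 had a log2 fold change below 0, yet 3 fell and 1 rose. Of all 669 tested arrays 500 were below 0, and the median over all rows of that fit was -0.00624. Arrays can share reads, so these are not independent observations. The sum rests on a few copies, since 4 arrays held 58.5% of its counts. Without those 4 the levels were 540 and 661 CPM in NC and 418 and 477 CPM after Setdb1 shRNA, again lower in both knockdown libraries.

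The 47 arrays with a 927-bp locus had 225 and 112 counts in NC and 3105 and 3069 after Setdb1 shRNA, summed over all 47 whether tested or not. Both knockdown libraries were far above both NC libraries, at 18.3 times the NC mean. The 927-bp length was set apart after the values had been seen, for its high median among the commonest lengths. A rise of this group therefore follows at least in part from that choice. The size of the rise is a description and not support for a link between length and change. Without NC replicate 2, 14 of 33 tested arrays were called higher. The 18 untested arrays gave the same order, with 18.7 and 7.52 counts in NC and 84.6 and 89.3 after Setdb1 shRNA. These arrays often ended in a locus of 2583 bp (10 arrays) or 2604 bp (7 arrays), and none held a 2682- or 2685-bp locus.

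A compact group of 47 arrays spanned 3 to 3.2 kb, of which 11 began with a 528-bp locus. They summed to 351 and 286 counts in NC and to 2802 and 2558 after Setdb1 shRNA, 8.41 times the NC mean. Of 17 tested, 15 rose. The remaining 2 had log2 fold changes below 0, the lower at -1.02. Without NC replicate 2, 7 of 20 were called higher. The array of highest level held 36.5% of the group's counts and the first 4 held 70.6%. Without those 4 the levels were 9.29 and 8.97 CPM in NC and 35.3 and 36.4 CPM after Setdb1 shRNA. The 30 untested arrays had 63.1 and 79.3 counts in NC and 91.7 and 84.2 after Setdb1 shRNA.

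The 95 arrays of 7.4 to 7.6 kb had 21 and 31.8 counts in NC and 779 and 531 after Setdb1 shRNA. That is 24.8 times the NC mean, from a level near silence, and 8 of 9 tested arrays rose. Without NC replicate 2, 4 of 13 were called higher, and limma-trend called 5 of 9. The first 4 arrays held 62.2% of the counts, and without them the levels were 1.01 and 1.41 CPM in NC and 14.5 and 9.33 CPM after Setdb1 shRNA. The level was uneven along the array. Over all 95, the first loci summed to 1.72 and 1.70 TPM after Setdb1 shRNA and the last loci to 19.9 and 13.4 TPM. The 326 loci between them summed to 19.1 and 6.95 TPM. In NC the first loci had 0.12 and 0 TPM, those between 0.47 and 0.4 TPM and the last 0.32 and 0.66 TPM. A lower sum for first than for last loci was not particular to this group. In the 927-bp arrays the 47 first loci summed to 31.6 and 37.6 TPM after Setdb1 shRNA and the 47 last loci to 53.8 and 47.8 TPM. The 85 loci between them summed to 91.6 and 98.7 TPM, over a larger number of loci. The 948 other arrays summed to 12338 and 14341 counts in NC and 13867 and 13196 after Setdb1 shRNA, overlapping between groups, with 25 higher and 3 lower of 221 tested.

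**Figure D3:**
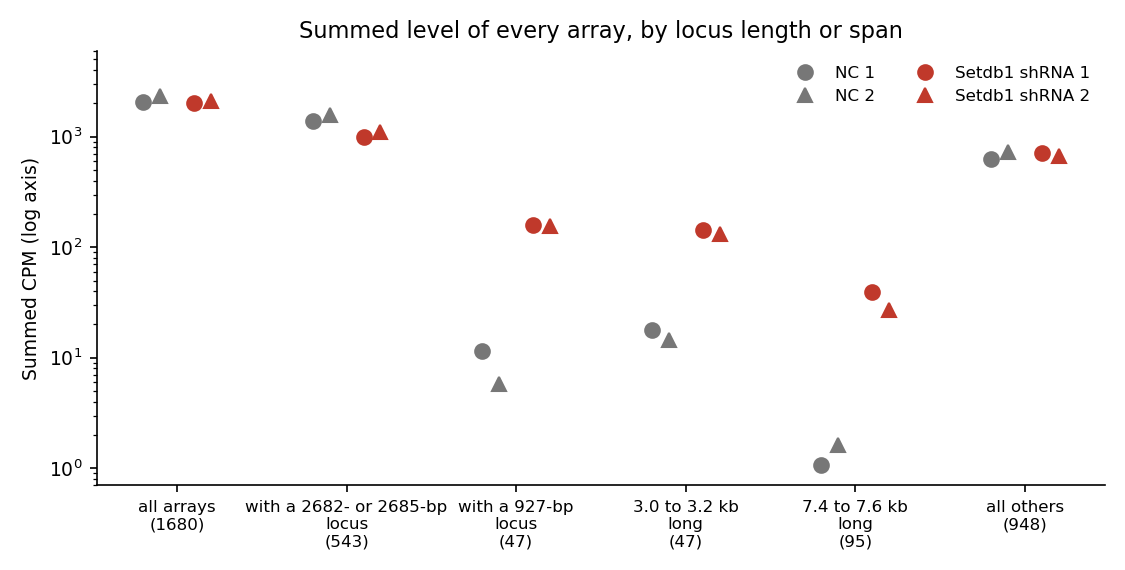
Summed CPM in each of the 4 libraries on a log axis, for all arrays and for arrays grouped by locus length or span, with the number of arrays below each group. The sum over all arrays overlaps between NC and Setdb1 shRNA, the 543 arrays with a 2682- or 2685-bp locus are lower in both knockdown libraries, and the 3 smaller groups are higher in both.

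The array with the smallest p, at chr4:32032217-32035310 on the minus strand, ran as loci of 471, 561 and 1953 bp. It had 57.4 and 54.6 counts in NC and 1110 and 968 after Setdb1 shRNA, a log2 fold change of 4.23 (SE 0.195, adjusted p = 1.179e-05). All 3 of its loci were called higher. Their TPM after Setdb1 shRNA were 28.2 and 29.2 for the 471-bp locus, 19 and 18 for the 561-bp locus and 34.2 and 29.1 for the 1953-bp locus, so the level was nearly even along the array. In NC none exceeded 2.56 TPM.

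The array at chr10:97528083-97533165, minus strand, ran as 1746, 927 and 2604 bp and had 28.5 and 12.1 counts in NC and 536 and 568 after Setdb1 shRNA (log2 fold change 4.77, SE 0.308, adjusted p = 8.147e-05). Its 3 loci had 7.06 to 8.70 TPM in the knockdown libraries. The array lies 31963 bp from the start of Lum, a proteoglycan gene listed at 0 to 0.03 TPM. Another proteoglycan gene, Dcn, starts 48474 bp away and had 1227 and 1338 TPM in NC and 1372 and 1345 TPM after Setdb1 shRNA, which did not pass the test (adjusted p = 0.586 by edgeR).

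In all, 7 arrays shared exactly that order of lengths, 1746-927-2604, and 6 of the 7 rose. Their levels nevertheless differed widely. The copy at chr10:21730381-21735463 had 468 and 469 counts after Setdb1 shRNA, whereas that at chr17:89258284-89263366 had 72.9 and 73.9. The copy that missed the threshold, at chr15:7540860-7545942, had 5.47 and 1.85 counts in NC and 14.4 and 17.7 after Setdb1 shRNA (log2 fold change 2.18, adjusted p = 0.0538). It shared its NC values exactly with the copy at chr16:4344091-4349173, which had 35.6 and 41.8 counts after Setdb1 shRNA.

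On chromosome 14 an array at 55797815-55802776, plus strand, of 1371, 927, 957 and 1686 bp, rose from 2.18 and 4.76 counts to 266 and 210 (log2 fold change 6.06, SE 0.406, adjusted p = 9.054e-05). Its 4 loci were all called higher. The nearest gene start, at 8950 bp, was that of Ripk3, a kinase of necroptosis, at 0 TPM in 3 libraries and 0.16 in the other. On chromosome 5 an array at 15056490-15061128, minus strand, of 1230, 894, 849 and 1731 bp, rose from 39.7 and 28.6 counts to 504 and 761 (log2 fold change 4.22, SE 0.292, adjusted p = 9.054e-05). All 4 of its loci were called higher, at 7.29 to 16.2 TPM in the knockdown libraries.

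The chrX:72741494-72748958 array, minus strand, ran as 1989, 3561 and 2070 bp and spanned 7465 bp. It had 1.21 and 2 counts in NC and 177 and 151 after Setdb1 shRNA. With so few NC counts, the ratio of summed counts is 109, with an exact 95% binomial interval of 36.9 to 530 that covers counting error only. Its level rose along the strand: after Setdb1 shRNA the 1989-bp locus had 0.07 and 0.22 TPM, the 3561-bp locus 0.37 and 0.42 TPM and the final 2070-bp locus 5.37 and 4.26 TPM. Most of the reads of this array lay in its last locus.

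Of the 10 arrays with the largest fitted rises, 8 had no count in either NC library, and their fold is a lower bound, set against a floor of 3 counts over the group. The array at chr12:87935371-87945784, plus strand, with 8 loci, had 312 and 189 counts after Setdb1 shRNA and was at least 167-fold higher. That at chr1:195350555-195358044, minus strand, with 3 loci, had 172 and 106 counts and was at least 92.7-fold higher. On the X chromosome 2 arrays of 5 and 4 loci, at chrX:33808563-33815878 and chrX:34275337-34282655, had 96.7 and 114 counts and 82.5 and 58.8 counts, and were at least 70.2-fold and at least 47.0-fold higher. All 8 passed the low-count filter through the knockdown libraries alone, so no p is given for them. Arrays with few NC counts passed in the same way. Examples are chr14:55797815-55802776, at 2.18 and 4.76 NC counts, and chr1:170942219-170949615, at 5.55 and 1.09. The p-values printed for such arrays are descriptions and not support.

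**Figure D4:**
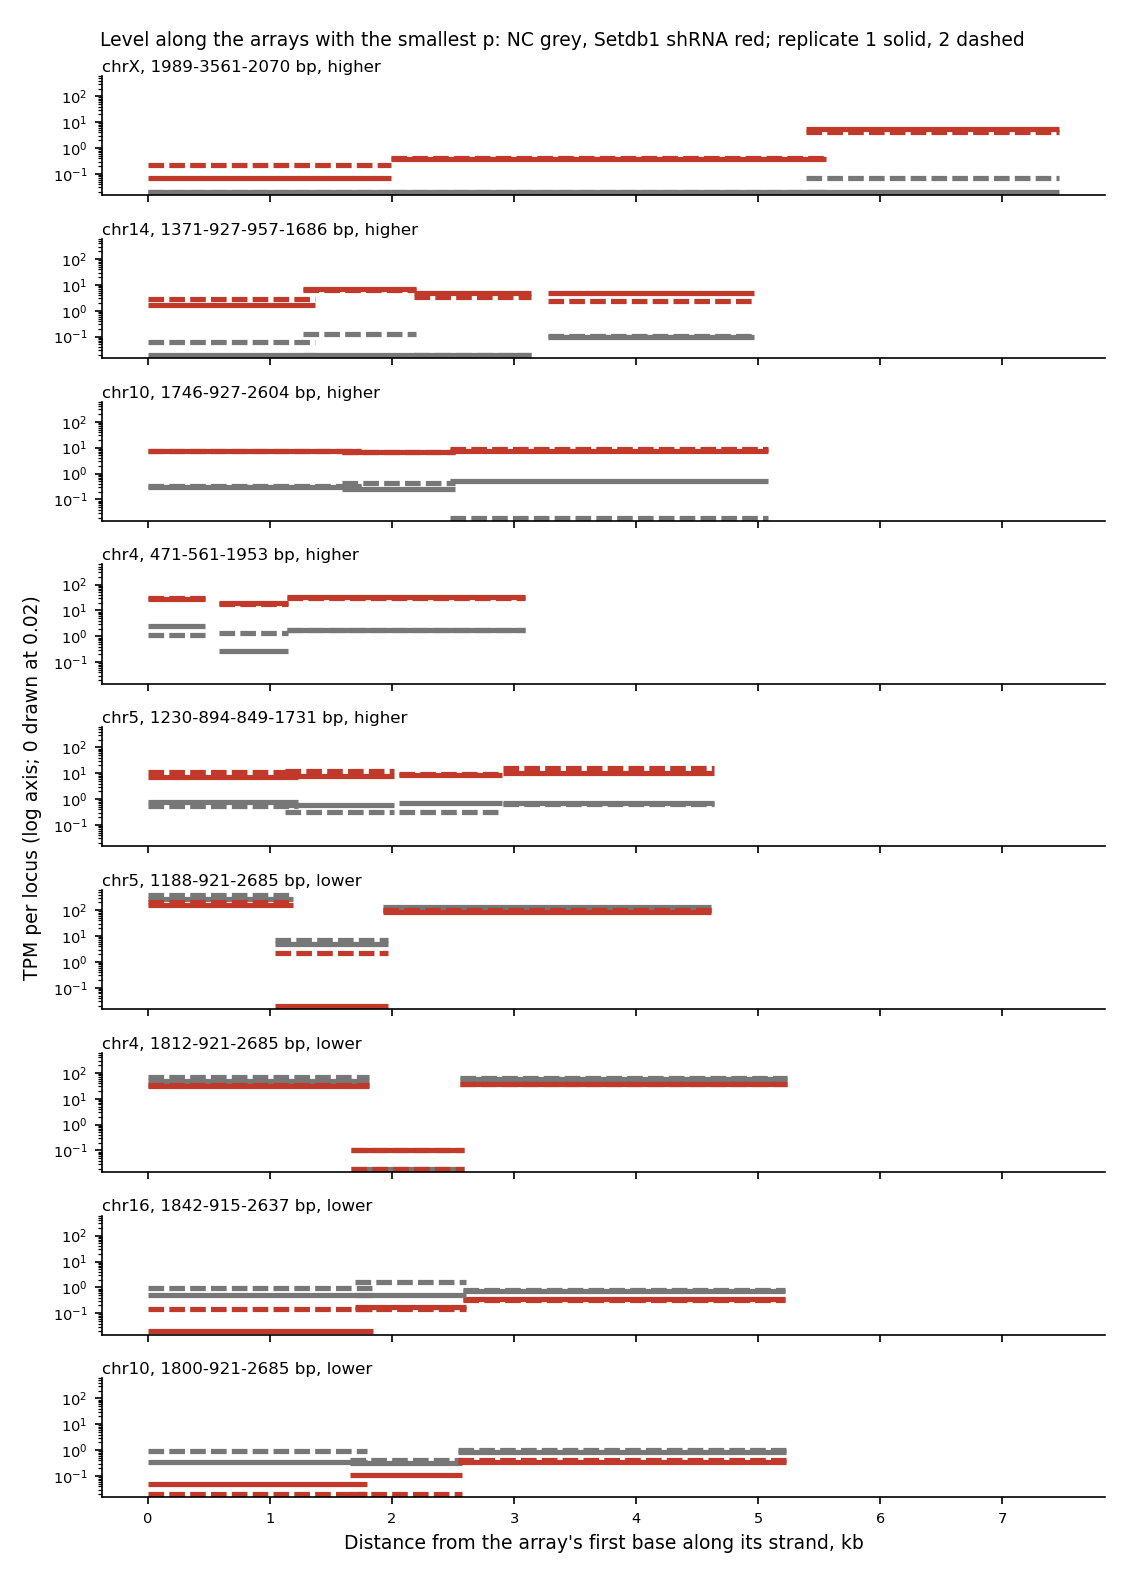
TPM of each locus (log axis, 0 drawn at 0.02) against distance in kb from the first base of its array along its strand, for the 5 risen and 4 fallen named arrays with the smallest p, NC in grey and Setdb1 shRNA in red, replicate 1 solid and 2 dashed. The chr4 riser is nearly even at 18 to 34.2 TPM in red, the chrX riser climbs to 5.37 TPM in its last locus, and the middle locus of the chr4 and chr5 arrays that fell is far below its neighbours in every library.

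Of the 6 falls, 4 had a mean over the libraries of at least 1 CPM, the limit for being named by rule. The array of highest level, at chr5:124105865-124110479, minus strand, of 1188, 921 and 2685 bp, went from 8990 and 9529 counts to 5678 and 6707 (log2 fold change -0.56, SE 0.14, adjusted p = 0.0447). The call was lost with a replicate block and without NC replicate 1, NC replicate 2 or Setdb1 knockdown replicate 1, at adjusted p of 0.0563, 0.0857, 0.204 and 0.244. The array at chr4:117192595-117197833, plus strand, of 1812, 921 and 2685 bp, fell from 3347 and 4128 counts to 2224 and 2210 (log2 fold change -0.73, SE 0.142, adjusted p = 0.0132). It was not called without NC replicate 2, at an adjusted p of 0.123. Its outer loci had 31.3 to 71.8 TPM over the 4 libraries, while the 921-bp locus between them had 0 to 0.10 TPM. The same dip was present in the chr5 array, where the 921-bp locus had 0 to 7.18 TPM between loci of 85.3 to 388 TPM.

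The array at chr10:77951281-77956507 lies within Trpm2, a calcium channel gene, on the opposite strand, and had 43.9 and 65.5 counts in NC and 15.6 and 15.7 after Setdb1 shRNA (log2 fold change -1.74, SE 0.363, adjusted p = 0.0192). Trpm2 itself was at 0 to 0.21 TPM. The strand setting of the counting is not given in the sources used here, so reads of features on opposite strands may be mixed. The array at chr16:90343979-90349199 lies within the transcript Gm49708 on its strand and had 44.5 and 70.0 counts in NC and 15.7 and 17.7 after Setdb1 shRNA (log2 fold change -1.73, SE 0.368, adjusted p = 0.021). Gm49708 did not pass the test, at 1.77 and 3.52 TPM in NC and 2.93 and 1.74 after Setdb1 shRNA. Both falls were lost without NC replicate 2 (adjusted p of 0.126 and 0.136) and without Setdb1 knockdown replicate 1 (0.0549 and 0.0653), the first also without Setdb1 knockdown replicate 2 (0.0555) and the second with limma-trend (0.0581). The other 2 falling arrays had a mean under 1 CPM in both groups and are named after their values were seen. That at chr3:55578471-55585605 went from 14.6 and 23.9 counts to 0 in both libraries, at least 12.9-fold lower, and that at chrX:74874461-74878865 from 10.7 and 11.2 counts to 1.32 and 1.55.

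Among the 10 arrays of highest level, 6 did not pass the test. That at chr8:121833638-121840789, plus strand, of 1773, 3540, 1044 and 1014 bp, had 3027 and 3733 counts in NC and 2839 and 2808 after Setdb1 shRNA (log2 fold change -0.23, SE 0.141, adjusted p = 0.372). It lies within the transcript Gm42047, with which it may share reads and which had 20.4 and 21.6 TPM in NC and 17.4 and 18.6 TPM after Setdb1 shRNA. The array at chr10:116607638-116612891 had 3105 and 3239 counts in NC and 2392 and 2458 after Setdb1 shRNA (adjusted p = 0.13). The array at chr5:23701149-23708539, within AI506816, had 955 and 1046 counts in NC and 1188 and 469 after Setdb1 shRNA, so the knockdown libraries lay on either side of NC. Without Setdb1 knockdown replicate 1 its log2 fold change was -1.06 (adjusted p = 0.00198), and without replicate 2 it was 0.27 (adjusted p = 0.646).

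A single array with a 2685-bp locus rose. It runs as 1932, 933 and 2685 bp at chr11:120321547-120326905, plus strand, and had 88.0 and 46.1 counts in NC and 473 and 541 after Setdb1 shRNA (log2 fold change 2.94, SE 0.279, adjusted p = 2.622e-04). Its 1932-bp first locus had the change of smallest p in the array, from 14.3 and 13.2 counts to 180 and 203.

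**Figure D5:**
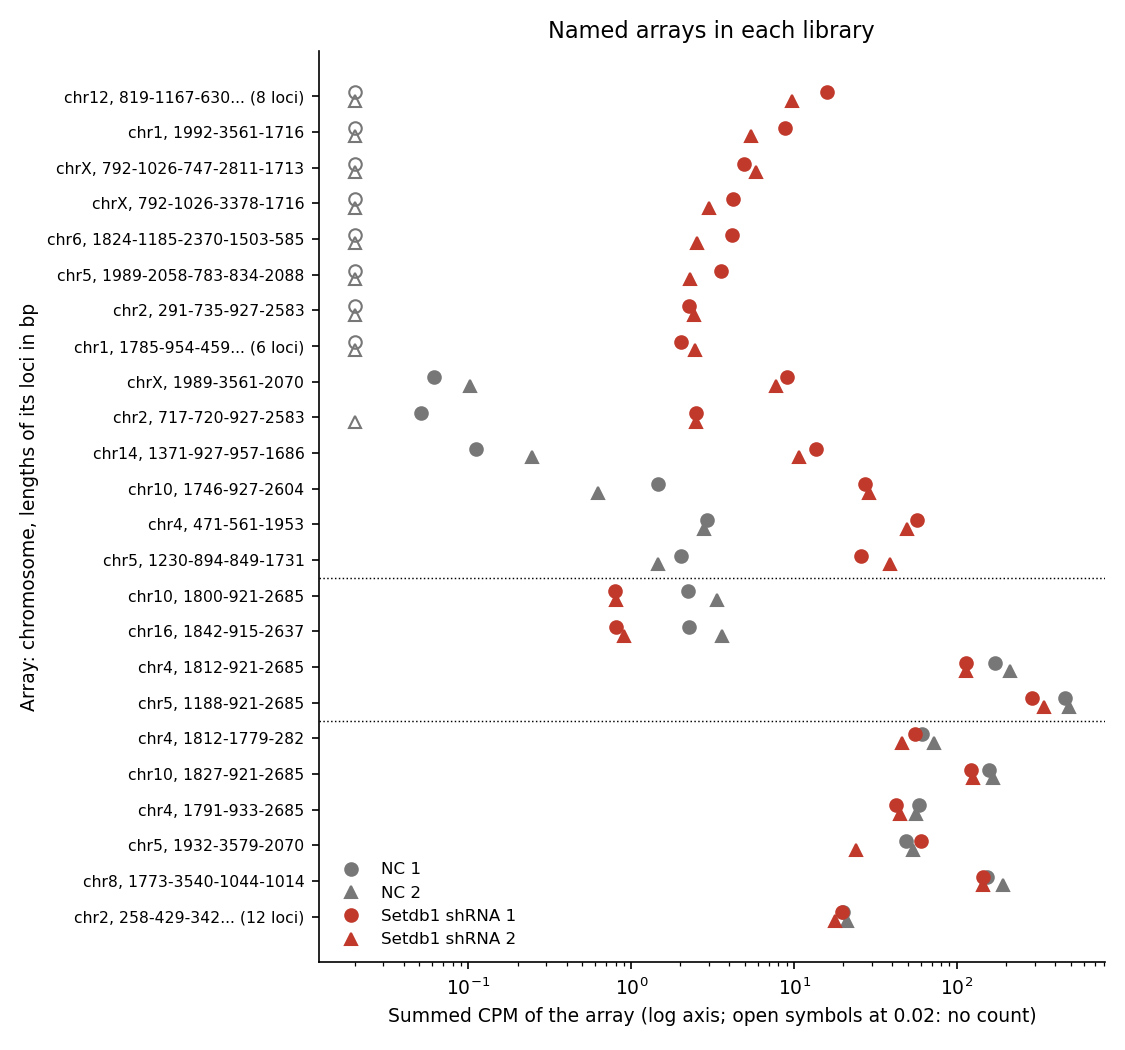
Summed CPM of the 24 named arrays in each library (log axis, open symbols at 0.02 for no count), labelled by chromosome and locus lengths, with risers above the first dotted line, falls between the lines and arrays that did not pass the test below. Of the 14 risers shown, 8 have no NC count, and all 4 falls shown have both knockdown libraries below both NC libraries.

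Readable sequence of 4 risen arrays was compared with that of arrays at high level that did not pass the test. For 2 of the 4, at chr1:195256356-195261483 and chr5:117297922-117300927, the best placement matched at 41 of 90 bases. The other 2 matched closely. The array at chr12:43954132-43961084, minus strand, went from 13.9 and 16.5 counts to 92.6 and 67.4 (log2 fold change 2.38, SE 0.349, adjusted p = 0.00331). The first 90 bases of its 1773-bp locus are identical to those of the 1773-bp locus of the chr8:121833638-121840789 array, and over all 511 readable bases of the 2 loci 509 were equal. The array at chr1:170942219-170949615, plus strand, went from 5.55 and 1.09 counts to 59.6 and 34.4 (log2 fold change 3.72, SE 0.608, adjusted p = 0.00568). A stretch of its 3588-bp locus matched the 3579-bp locus of the chr5:23701149-23708539 array at 88 of 90 bases, and 286 of 292 readable bases were equal. The stretches are printed 5′ to 3′ on the locus strand to show this likeness, with capitals at the 2 bases that differ in the last.

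chr12:43960995-43961084, minus strand, and chr8:121833638-121833727, plus strand: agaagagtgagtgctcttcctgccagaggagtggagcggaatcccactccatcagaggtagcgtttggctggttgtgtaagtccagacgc
chr1:170944859-170944948, plus strand: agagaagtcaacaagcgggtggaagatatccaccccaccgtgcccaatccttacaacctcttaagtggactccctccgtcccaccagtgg
chr5:23705810-23705899, minus strand: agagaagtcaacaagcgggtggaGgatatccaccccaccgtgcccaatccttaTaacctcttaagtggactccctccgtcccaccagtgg

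With so few differences, a read from 1 copy can be counted to another, and how far this touches each value was not tested.

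Of the 77 risen arrays, 10 lay wholly within an annotated gene, 2 on its strand and 8 on the other. Of all 1680 arrays 367 did, 119 on the strand of the gene and 248 on the other. Within 50 kb of the 77, 224 genes had their start, of which 43 could be tested, 9 rose and 1 fell. In the same fit 4.70% of gene rows rose and 1.86% fell. Around the 6 falling arrays 10 genes were tested, 0 rose and 1 fell, by edgeR. Among the 9 was Gm42546, which overlaps the array at chr5:117297922-117300927 on the opposite strand and went from 0.51 and 0.26 TPM to 5.42 and 4.87 TPM (log2 fold change 3.78, adjusted p = 2.601e-04 by edgeR). That array is named after its values were seen and had a log2 fold change of 3.17.

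Compared with the other position-named rows, arrays with a long locus held most of the counts. They had 2047 and 2340 CPM in NC, against 182 and 215 CPM for arrays of short loci only, which had 332 and 333 CPM after Setdb1 shRNA. Of the 83 loci tested in short arrays 44 rose and 0 fell, at a median log2 fold change of 2.99. Solitary loci of 900 bp or longer had 5 higher and 3 lower of 178 tested, pairs 17 and 1 of 140, and solitary loci under 900 bp 6 and 0 of 12 at a median of 1.8. The differences between these groups were not tested.

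Genes that act in retroelement silencing, from a list chosen with earlier results of these data known, mostly did not pass the test. The list holds 42 genes and 37 could be tested. In it 3 rose and 2 fell, the median log2 fold change was -0.03, and without NC replicate 2 none of the 3 was called (0 higher and 1 lower by edgeR, 5 and 2 at an unadjusted p below 0.05). Besides Setdb1, Suv39h2, another H3K9 methyltransferase, fell from 8.20 and 9.12 TPM to 4.59 and 5.19 (log2 fold change -0.82, SE 0.189, adjusted p = 0.0295). Atf7ip, the cofactor that stabilises Setdb1, rose from 16.7 and 20.5 TPM to 39.3 and 29.6 (log2 fold change 1.10, SE 0.167, adjusted p = 0.00385). Zfp809, a KRAB zinc finger that binds the primer site of murine leukaemia virus-type elements, rose from 6.24 and 6.62 TPM to 13.4 and 9.38 (log2 fold change 0.92, SE 0.23, adjusted p = 0.043). Samhd1, a nucleotide hydrolase that restricts retroviruses, was called higher on counts, at 2877 and 2527 in NC and 3641 and 4172 after Setdb1 shRNA (log2 fold change 0.55, SE 0.143, adjusted p = 0.0484). On the TPM scale its groups overlapped, at 73.4 and 78.8 in NC and 76.8 and 87.7 after Setdb1 shRNA, and its call was lost with other scaling factors (adjusted p of 0.0501 and 0.0507 by edgeR). Only Setdb1 among these 5 genes kept its call with each library left out. Trim28 did not pass the test, at 342 and 305 TPM in NC and 298 and 291 TPM after Setdb1 shRNA.

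Markers checked the cell type. Alb, the liver's albumin, was at 429 and 432 TPM in NC and 856 and 732 TPM after Setdb1 shRNA. Of 35 markers of liver and other cells 19 were tested. Alb, Gpc3, Cd68, Col1a1 and Epcam rose and Apob and Hnf4a fell. The 12 hepatocyte and hepatoma markers summed to 3633 and 3974 TPM in NC and 4114 and 3706 TPM after Setdb1 shRNA. The 6 markers of pluripotent and early embryonic cells, in which retroelements are known to be transcribed, summed to 0.39 to 0.56 TPM in NC and 0.72 to 0.87 TPM after Setdb1 shRNA, with 2 at 0 in every library. The 5 leukocyte markers summed to 8.02 TPM in both NC libraries and to 15.2 and 12.3 TPM after Setdb1 shRNA, nearly all of it Cd68, and 2 were at 0. The part of these differences in the results was not tested.

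At the edge of the rule, the arrays just inside the 1500-bp limit had a longest locus of 1500 bp, at chr11:121398711-121401802, with 56.5 and 34.0 counts in NC and 364 and 299 after Setdb1 shRNA, and of 1503 bp, at chr7:65262371-65265916, with 1 count in all. Just outside were arrays with longest loci of 1497 bp and 1494 bp, which had 0 to 2.08 counts in each library.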

How the data were processed

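Gene tables of 4 libraries of total RNA from Hepa1-6 cells, made with a strand-keeping kit per the labels' protocols, were used. Per the file headers, the authors' deposited tables hold expected counts, estimates that divide reads among the rows they fit, in the form RSEM writes. Per the file headers they also hold TPM and FPKM, both adjusted for row length and library total by the authors; FPKM were not used. The submitters' processing notes name FastQC, STAR, RSEM, DESeq2 and GRCm38/mm10, with no version or role. The files and labels do not say how the position-named loci were chosen. The members, lists and length groups were chosen with earlier results of these data known.

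Expected counts were rounded and fitted with edgeR 4.0.16 (R 4.3.3; filterByExpr, TMM, quasi-likelihood F-test, group alone), all rows together, with Benjamini-Hochberg adjustment over all rows tested and a threshold of 0.05. The biological coefficient of variation was 13.8%, with 2 residual degrees of freedom. The variance of each row was moderated by that of the other rows, with median prior degrees of freedom of 7.42 in the fit of loci and 7.62 in that of arrays. On simulated data of 13859 rows, the fit recovered 68.7% of 2-fold and 90.3% of 4-fold changes, and 4.02% of calls were false. The simulated rows were genes and loci alike, drawn independently and with no reads shared between rows. These shares therefore need not hold for the array loci. CPM scale counts to the library total (1 CPM is 19.5 to 19.6 counts). Arrays were summed before rounding.

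Named items followed a rule. Named were, among called rows whose groups did not overlap and whose mean was at least 1 CPM, the largest changes and the 5 smallest p-values in each direction, and, whatever the test gave, the 10 of highest level. Outside it, and chosen after their values were seen, are the arrays of 1 shared length order, the arrays whose sequences are compared, the chr11 riser with a 2685-bp locus, Dcn, Gm42546 and Samhd1. Genes were matched to GENCODE M21 (54809 of 54838 gene rows). Sequences came from GENCODE M21 transcripts and RefSeq promoter windows, both GRCm38. No genome sequence was used here, so families of loci were not built by alignment. Alternatives were other scaling, filters, tools (DESeq2 1.42.0, limma 3.58.1 on log2(TPM + 1)), chain rules, each library left out and the replicate number as a block.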

Additional observations from a re-analysis of the deposited data

How the results depend on the processing

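Calls rest on few libraries. Array loci called higher numbered 122 of 625 tested (19.5%). Another minimum length for the long locus changed which loci were counted. With a higher minimum 71 of 534 (13.3%) were called higher, and with a lower minimum 153 of 676 (22.6%). The lower calls numbered 7 as reported, 3 with at least 1 CPM in 2 libraries, 4 with limma-trend, 25 with adjustment among position-named rows alone and 16 with the replicate block. Leaving out 1 library gave 73 to 128 higher and 1 to 23 lower. Arrays called higher numbered 77 of 669 tested, 44 of 565 with that higher minimum and 98 of 707 with that lower minimum. Arrays called lower numbered 6, 15 with adjustment among position-named rows alone and 11 with the replicate block. Leaving out 1 library gave 42 to 78 higher and 0 to 14 lower. With no low-count filter edgeR called 0 array loci and 0 arrays in either direction, with 366 and 263 array loci and 159 and 131 arrays at an unadjusted p below 0.05. Setdb1 then had an adjusted p of 0.0881 at a log2 fold change of -2.47. The silencing genes called, 3 higher and 2 lower, became 0 and 0 with no filter (3 and 2 at an unadjusted p below 0.05), 0 and 1 with limma-trend, and 0 to 2 higher and 1 to 3 lower with 1 library left out. The causes were not tested.

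Same-numbered libraries did not deviate together (correlation -0.138 over loci and -0.137 over arrays), so the block result above is not evidence of pairing. A crossed pairing, added after the data were seen, gave 126 and 32 array loci and 79 and 24 arrays.

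The log2 ratio of the summed level, -0.09, was 0.06 on TPM, 0.16 over the loci with whole counts and -0.18 to 0.01 with 1 library left out. The sum of the arrays outside the length groups, 0.02, changed sign without NC replicate 1 (-0.09) and without Setdb1 knockdown replicate 1 (-0.02), in a range of -0.09 to 0.13. Among named items, uncalled values changed sign for the chr8:121839776-121840789 locus (-0.23 to 0.07 with 1 library left out, with 0.02 without Setdb1 knockdown replicate 2), for the chr4:134160223-134164118 array (0.05 with limma-trend) and for the chr5:23701149-23708539 array (-1.06 to 0.27 with 1 library left out). Other scaling and the legacy fit changed no call among the named loci and arrays, but left 2 of the 3 silencing genes called higher: Samhd1 was lost, at adjusted p of 0.0501 with DESeq2's size factors, 0.0507 with scaling from gene rows, 0.0536 with the legacy fit and 0.0517 with the replicate block.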
